A study of Mus musculus with 12 samples.

Results

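The genes described here are 8 mouse receptors for colony stimulating factors and related growth factors: Csf1r, Csf2ra, Csf2rb, Csf2rb2, Csf3r, Il3ra, Flt3 and Kit. The rule that defines them is a list of symbols that uses no measured value, although the list was drawn up with earlier results of these data known. All 8 were found among the 18467 gene symbols of the count table. The study concerned the erythroblastic niche of bone marrow, the site where macrophages support maturing red cells, and its part in metastatic growth. RNA was sequenced from macrophages sorted out of marrow of the femur and tibia, with 3 libraries from different mice in each of 4 groups. Metastatic marrow came from female Albino B6 mice that had received E0771 cells, a mouse breast cancer line, by injection into the caudal artery at 8 weeks of age. Normal marrow came from healthy control mice, whose age the labels do not give. The labels name no engineered allele and no drug in any group. General macrophages were sorted as live CD11b+F4/80+ cells, and niche macrophages as live VCAM1+CD163+CCR3+ cells. The sample titles call both sorts general, so each library was assigned by its sorting antigens. Libraries carry the numbers 1 to 3 in 3 of the groups, and the libraries of the niche normal group are called A, B and C because their numbers differ between titles and columns.

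Colony stimulating factor receptors carry the signals that keep myeloid cells alive, dividing and maturing. Csf1r, Kit and Flt3 are receptor tyrosine kinases, whereas Csf2ra and Il3ra are ligand-binding alpha chains that signal through a shared beta chain, Csf2rb, and the kinase Jak2. Csf3r binds granulocyte colony stimulating factor and signals as a homodimer. In marrow, Csf1r is known as the survival receptor of macrophages, Csf3r as the receptor that drives neutrophil production, and Kit and Flt3 as receptors of stem and progenitor cells.

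The beta chain is encoded by a pair of neighbouring genes in mice, and their sequences are shown because they bear on how reads are shared between them. Csf2rb lies on the plus strand at chr15:78325752-78353847 (GRCm38, GENCODE release M21), and Csf2rb2, a beta chain that serves interleukin-3 alone, lies on the minus strand at chr15:78282507-78305721. Their coding sequences of 2688 and 2634 bases were identical at 2503 of 2628 aligned bases, or 95.2%. The longest run of identical bases was 242 bases in exon 14 of both genes, at chr15:78348577-78348818 in Csf2rb and at chr15:78284630-78284871 in Csf2rb2. A read that falls within this run cannot be assigned to either gene by its own sequence.
Both genes, exon 14: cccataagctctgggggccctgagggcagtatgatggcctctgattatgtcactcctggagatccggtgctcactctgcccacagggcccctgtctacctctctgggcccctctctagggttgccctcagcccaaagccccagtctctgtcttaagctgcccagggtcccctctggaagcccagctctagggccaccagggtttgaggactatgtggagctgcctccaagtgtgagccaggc
The coding window of 90 bases with the most differences, 16, was in exon 4, at chr15:78338897-78338986 in Csf2rb and at chr15:78294345-78294434 in Csf2rb2. Capitals mark the bases that differ between the genes.
Csf2rb, exon 4: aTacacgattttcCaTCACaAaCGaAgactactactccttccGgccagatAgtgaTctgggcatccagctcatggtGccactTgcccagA
Csf2rb2, exon 4: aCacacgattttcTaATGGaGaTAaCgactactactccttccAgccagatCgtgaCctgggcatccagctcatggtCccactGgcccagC
Of all stretches of 50 bases in the annotated transcripts, 12.27% of those of Csf2rb were also found in Csf2rb2, and 18.44% of those of Csf2rb2 were found in Csf2rb. At 100 bases the shares were 4.63% and 6.82%. How the counting divided such reads is not given in the sources used here, so the counts of both genes are uncertain to that extent.

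PU.1, encoded by Spi1, is a transcription factor known to act on the promoters of myeloid receptor genes, and its core letters GAGGAA were searched on both strands of the RefSeq promoters (250 bases before to 50 after the start site, GRCm38.p6). The promoters of Csf1r and Csf2rb were not searched. The core was present in 4 of the 6 receptor promoters searched, and in 9151 of 32544 mouse promoters of the same length, or 28.1%. Csf2ra held it at 2 places, beginning 14 and 8 bases before the start site. Csf3r held it 86 bases before and Kit 223 bases before, while Csf2rb2 held it on the opposite strand 167 bases before the start site and again after it. The promoters of Flt3 and Il3ra held no match in this window. Capitals mark the core, or its complement in Csf2rb2, in the 30 bases shown for each gene.
Csf2ra, chr19:61228419-61228448, minus strand: ttcccaacctgcagatGAGGAAGAGGAAgc
Csf3r, chr4:126024561-126024590, plus strand: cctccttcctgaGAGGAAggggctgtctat
Kit, chr5:75574752-75574781, plus strand: ggagagtgctagGAGGAAgaggatccaggg
Csf2rb2, chr15:78305871-78305900, minus strand: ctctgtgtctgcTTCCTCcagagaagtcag
A match of these letters describes the sequence only. Spi1 itself held 0.151 to 101 CPM (counts per 1000000 of the scaled library total) across the 12 libraries.

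Library totals ranged from 13687957 to 30332442 expected counts, and 3 counts corresponded to 0.109 to 0.243 CPM. The genes of the sorting antigens followed the sorts: Vcam1, Cd163 and Ccr3 rose in niche over general macrophages from normal marrow, by 5.09 ± 0.31, 6.22 ± 0.83 and 5.59 ± 0.44 on the log2 scale (edgeR, adjusted p of 0.000187 or lower). In metastatic marrow the same 3 genes rose by 3.82 ± 0.29, 5.20 ± 0.79 and 3.54 ± 0.40 (edgeR, adjusted p of 0.00115 or lower). Adgre1, the gene of F4/80, was higher in niche than in general macrophages, with a difference of 1.96 ± 0.34 when marrow was normal (edgeR, adjusted p = 0.00246) and of 1.18 ± 0.33 when it was metastatic, which did not pass (adjusted p = 0.166). Itgam, the gene of CD11b, gave -0.87 ± 0.26 and -0.34 ± 0.26 (edgeR, adjusted p of 0.0983 and 0.974). Transcripts of other marrow cells were abundant in both sorts. The summed level of 11 macrophage markers was 236 to 354 CPM in general and 2451 to 7312 CPM in niche libraries. Of these 11 genes, 3 encode sorting antigens (Adgre1, Vcam1 and Cd163) and gave 54.7% of the sum in niche normal and 56.1% in niche metastatic libraries. The other 8 summed to 33.3 to 134 CPM in general and 1053 to 3534 CPM in niche libraries, a sum added after the data were seen. The 10 neutrophil markers summed to 13628 to 22086 CPM in general and 9422 to 11420 CPM in niche libraries. Monocyte markers (7 genes) summed to 6136 to 6948 CPM in general and 1506 to 2307 CPM in niche libraries.

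All 8 receptor genes passed the filter on low counts, and 6 of them were detected in every library. Over the 12 libraries, the level per length (CPM per kilobase of merged exons) was highest for Csf3r, at 81.7 ± 41.3 (SD, n = 12). Csf2rb followed at 37.8 ± 14.8 and Csf2ra at 35 ± 16.3 CPM per kilobase. Csf1r, the macrophage survival receptor, came next at 21.3 ± 11.3 CPM per kilobase. Kit stood at 10.7 ± 5.29 and Csf2rb2 at 9.58 ± 5.96 CPM per kilobase. Il3ra and Flt3 were the lowest on this scale, at 1.09 ± 2.09 and 0.802 ± 1.6 CPM per kilobase, and each had 3 counts or fewer in 7 of the 12 libraries. Among neighbours in this order, Csf3r and Csf2rb differed by more than either SD, as did Csf2rb2 and Il3ra, and the others did not. With the longest transcript as length, Csf3r (84.7 ± 42.8) and Csf2rb (56.1 ± 22) differed by less than the SD of Csf3r. The order on merged exons also differed between groups. Csf1r (30.5 ± 17.1) stood above Csf2rb (25.4 ± 11.5) in niche normal and above Csf2ra (23.1 ± 10.3 against 20.7 ± 15.3) in niche metastatic libraries. The first of these reversed with the longest transcript, at 37.5 for Csf1r and 37.8 for Csf2rb. Csf2ra stood above Csf2rb in general normal and niche normal libraries, Csf2rb2 above Kit in both general groups, and Il3ra above Csf2rb2 (2.96 ± 3.74 against 2.06 ± 3.22) in niche normal libraries. With the longest transcript Csf2rb (61) stood above Csf2ra (59.2) in general normal libraries. Flt3 stood above Il3ra in niche metastatic libraries.

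**Figure D1:**
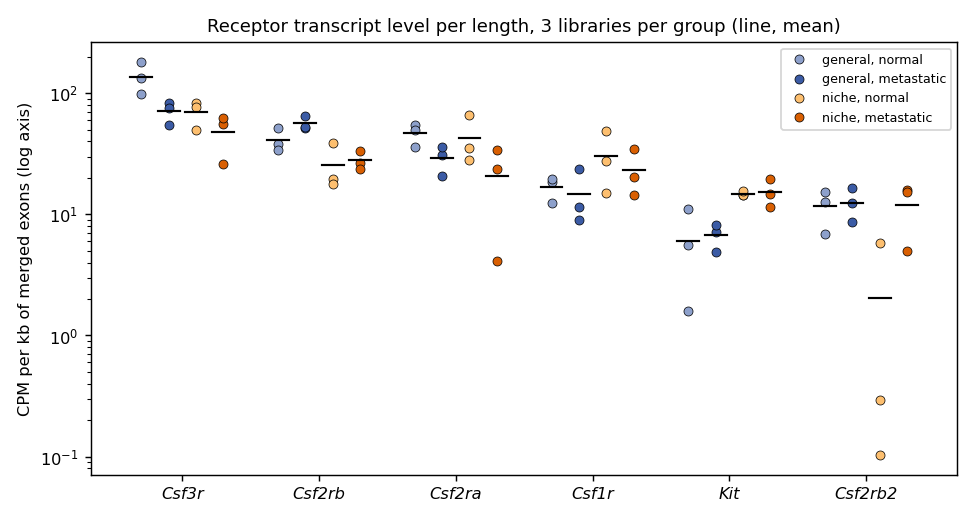
Transcript level per kilobase of merged exons on a log axis, for the 6 receptor genes detected in every library; points are libraries, lines are group means (n = 3). Csf3r stood highest in each group mean, and Csf2rb2 was far lower in niche normal A and B than in the other 10 libraries.

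The balance of Csf3r to Csf1r leaned less to Csf3r in most niche libraries. Per length, the ratio of Csf3r to Csf1r was 9.87, 7.95 and 6.78 in the general normal libraries and 6.08, 7.22 and 3.24 in the general metastatic libraries. It was 1.69, 5.08 and 1.82 in niche normal libraries A, B and C, and 1.62, 4.32 and 1.27 in the niche metastatic libraries. Csf3r thus exceeded Csf1r on this scale in each of the 12 libraries, and the general and niche ranges overlapped only between 3.24 and 5.08. The ratio was not tested.

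No receptor gene passed the threshold (Benjamini-Hochberg adjusted p under 0.05, edgeR quasi-likelihood test over 12882 genes) for niche against general macrophages of normal marrow, where 2.47% of all tested genes did. At an unadjusted p under 0.05 with edgeR the count was 6 of 8 (Csf2rb, Csf2rb2, Csf3r, Il3ra, Flt3 and Kit), where 19% of all tested genes passed. Il3ra and Flt3 had 3 counts or fewer in 7 of the 12 libraries and passed the filter through libraries where they were high, so nothing is read from their p-values or non-overlap in any comparison. Among the 6 receptor genes detected in every library the count was 4. DESeq2 called 1 of 8 (Il3ra, adjusted p = 0.0383) and 14.2% of all tested genes, and limma-voom called 0 of 8 and 1.44% of all tested genes. A p that misses the threshold does not show that levels were alike. Groups did not overlap for 3 of them: Kit was higher in every niche library (10% of all genes were), and Csf3r and Csf2rb2 were lower in every niche library (8.78% of all genes were). The median difference was -0.41 over the 6 genes detected in every library and 0.37 over all 8, beside 0.19 over all tested genes, on the log2 scale. Medians and shares over all tested genes, here and below, were not limited to genes detected in every library.

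In metastatic marrow, niche against general macrophages gave 0 of 8 receptor genes with edgeR, against 0.831% of all tested genes. At an unadjusted p under 0.05 there were 2 (Csf2rb and Kit), where 8.6% of all tested genes passed. DESeq2 called 0 of 8 and 3.73% of all tested genes, and limma-voom called 1 of 8 (Csf2rb, adjusted p = 0.0371) and 1.38% of all tested genes. Kit was again higher in every niche library, as were 8.34% of all genes, and Csf2rb was lower in every niche library, as were 8.85%. The median was -0.27 over the 6 and over all 8 genes, beside 0.04 over all genes.

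Averaged over both marrow states, a comparison added after the data were seen, 1 receptor gene was called. Csf2rb fell by 0.85 ± 0.22 on the log2 scale in niche macrophages (edgeR, adjusted p = 0.0319), from a mean of 355 to 195 CPM, in a comparison where 4.21% of all tested genes were called and 1.62% were called lower. The call was lost in 8 of the 12 fits that left out 1 library, with adjusted p between 0.0617 and 0.111, and when libraries were scaled by size only (adjusted p = 0.0708). The losses came without general normal 1 or 2, general metastatic 1 or 2, niche normal A or B, and niche metastatic 1 or 3. Kit was higher in the 6 niche libraries than in the 6 general libraries without overlap, as were 1.97% of all genes, but its difference of 1.23 ± 0.37 did not pass (adjusted p = 0.0687). Without general normal 3 it was 1.61 and was called (edgeR, adjusted p = 0.0262). Csf3r differed by -0.77 ± 0.24 (edgeR, adjusted p = 0.073). At an unadjusted p under 0.05 with edgeR the count was 5 of 8 (Csf1r, Csf2rb, Csf3r, Flt3 and Kit), where 2341 of 12882 tested genes passed. Among the 6 receptor genes detected in every library it was 4. DESeq2 called Csf2rb, Csf3r and Kit in this comparison, among 13% of all tested genes, and limma-voom called Csf2rb and Kit, among 3.71%.

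**Figure D2:**
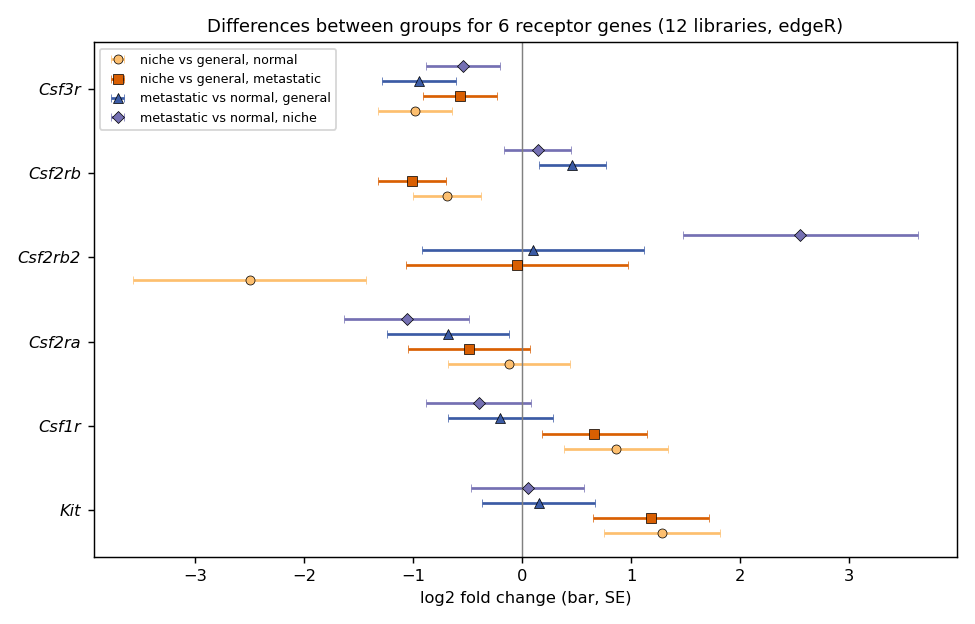
Differences on the log2 scale with their SE for 6 receptor genes in 4 comparisons, from the edgeR fit over 12 libraries. Kit lay above 0 and Csf2rb and Csf3r below 0 in both comparisons of niche with general macrophages, and none of the differences drawn passed an adjusted p of 0.05.

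Metastasis left no receptor gene past the threshold in either sort. In general macrophages the count was 0 of 8 with each of edgeR, DESeq2 and limma-voom, which called 0.0155%, 1.09% and 0.179% of all tested genes. At an unadjusted p under 0.05 with edgeR it was 2 of 8 (Csf3r and Flt3), or 1 of the 6 detected in every library, where 5.12% of all tested genes passed. Csf3r and Csf2ra were lower in every metastatic library, as were 5.64% of all genes, and Csf2rb was higher in every metastatic library, as were 7.27%. Flt3 was also higher in each, with 0 counts in every general normal library and as few as 4 in a metastatic one. In niche macrophages the count was 0 of 8 with the same 3 tools, which called 0.00776%, 7.41% and 0.0854% of all tested genes. At an unadjusted p under 0.05 it was 1 (Csf2rb2), where 12.7% passed. DESeq2 gave no adjusted p for Flt3 in any comparison. None of the 8 genes separated the niche metastatic from the niche normal libraries, whereas 5.63% of all genes were higher and 7.11% lower without overlap. Whether metastasis acted differently in the 2 sorts was tested as an interaction, which was called for 0 of 8 genes by edgeR (adjusted p from 0.5 to 1) and for 0% of all genes. It passed an unadjusted p under 0.05 for 2 of 8 (Il3ra and Flt3), for 0 of the 6 genes detected in every library and for 7.89% of all tested genes. DESeq2 called it for 1 of 8 (Il3ra, adjusted p = 0.0458) and for 3.18% of all tested genes, and limma-voom for 0 of 8 and 0%. Averaged over both sorts, also added after the data were seen, metastasis gave 0 of 8 with edgeR (adjusted p from 0.273 to 0.978), DESeq2 and limma-voom, which called 0.0543%, 4.59% and 0.0854% of all tested genes. At an unadjusted p under 0.05 there were 2 (Csf2ra and Csf3r), where 10.5% of all tested genes passed.

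**Figure D3:**
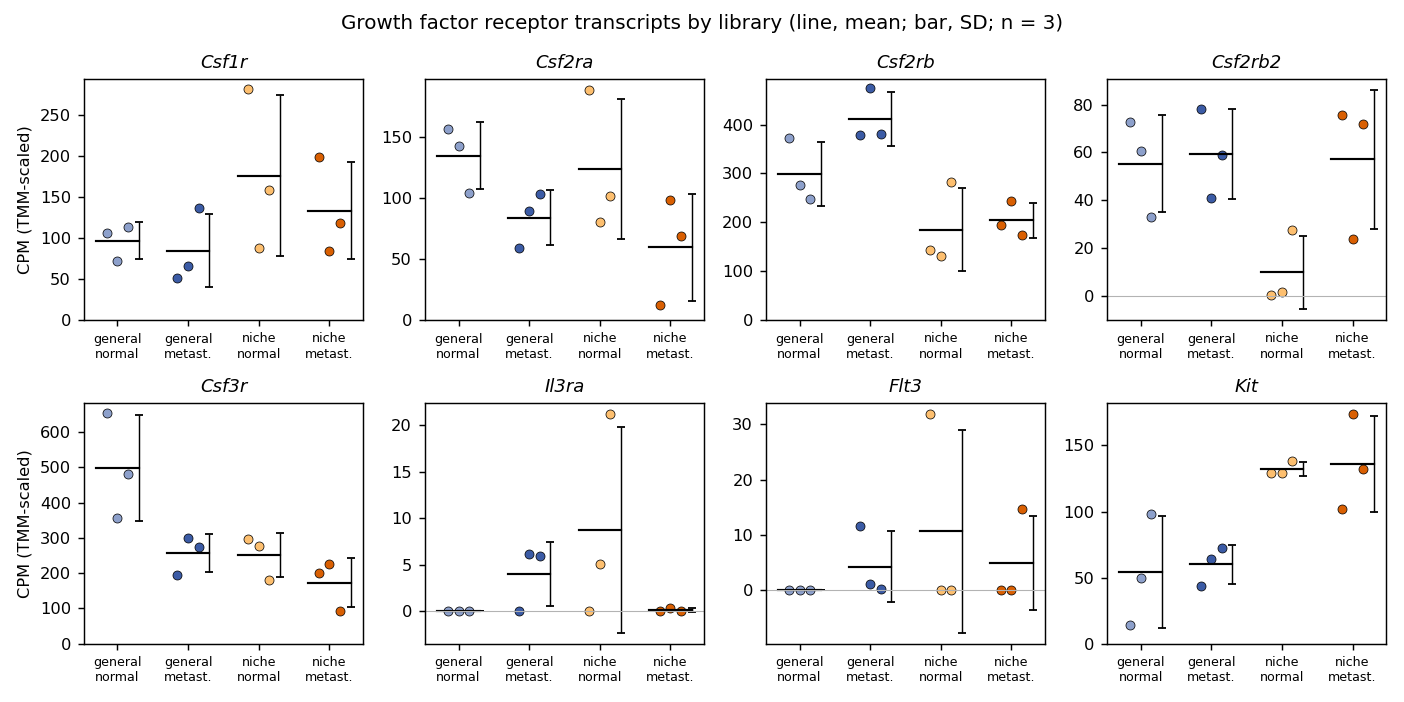
Level of each of the 8 receptor genes in CPM, by group; points are libraries, lines are means and bars are SD (n = 3), and each panel has its own axis. Kit was above 100 CPM in all 6 niche libraries and below it in all 6 general libraries, while Il3ra and Flt3 were near 0 in most libraries.

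Csf1r, which binds Csf1 and Il34 and spans chr18:61100598-61132149 on the plus strand, did not separate the sorts. It stood at 106, 71.4 and 113 CPM in the general normal libraries and at 51.6, 66.3 and 136 CPM in the general metastatic libraries. In niche macrophages it stood at 282, 87.5 and 159 CPM in normal libraries A, B and C, and at 199, 83.5 and 118 CPM in metastatic libraries 1 to 3. Niche normal A was the highest library, and neighbouring groups overlapped throughout the order of niche normal, niche metastatic, general normal and general metastatic. The difference of niche from general was 0.86 ± 0.48 in normal and 0.66 ± 0.48 in metastatic marrow (edgeR, adjusted p of 0.329 and 0.931). Averaged over both marrow states it was 0.76 ± 0.34 (edgeR, adjusted p = 0.24). Metastatic marrow differed from normal by -0.20 ± 0.48 in general and by -0.40 ± 0.48 in niche macrophages (edgeR, adjusted p of 1 and 0.866). The macrophage marker sum did not overlap between the sorts, with or without its 3 sorting antigen genes, of which Vcam1 and Cd163 define the niche sort, and its part in the Csf1r levels was not tested. In these bulk libraries, fewer cells of a type and less RNA per cell cannot be told apart. The gene shares 873 exonic bases with Hmgxb3 on the opposite strand, and reads there cannot be assigned without strand.

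Csf2ra, the alpha chain that binds granulocyte-macrophage colony stimulating factor, lies at chr19:61223957-61228429 on the minus strand. Its levels were 157, 143 and 104 CPM in general normal and 59.3, 89.4 and 103 CPM in general metastatic macrophages. They were 189, 80.1 and 102 CPM in niche normal macrophages and 11.8, 98.3 and 68.5 CPM in niche metastatic macrophages. Niche metastatic 1 stood apart at 11.8 CPM, and the highest general metastatic library lay just under the lowest general normal library. The sorts overlapped in both marrow states, with differences of -0.12 ± 0.56 in normal and -0.49 ± 0.56 in metastatic marrow (edgeR, adjusted p of 0.961 and 1). Metastatic against normal gave -0.68 ± 0.56 in general and -1.06 ± 0.57 in niche macrophages (edgeR, adjusted p of 1 and 0.421).

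Csf2rb, the beta chain common to the receptors for granulocyte-macrophage colony stimulating factor, interleukin-3 and interleukin-5, was higher in general macrophages. It stood at 373, 276 and 247 CPM in general normal and at 379, 475 and 381 CPM in general metastatic libraries. The niche normal libraries held 143, 130 and 282 CPM and the niche metastatic libraries 194, 244 and 174 CPM. All general metastatic libraries were above the rest, and niche normal C was the only niche library within the range of a general group. The order of means was general metastatic (411 ± 55), general normal (299 ± 65.6), niche metastatic (204 ± 36) and niche normal (185 ± 83.9 CPM, SD, n = 3), and the last pair overlapped. The difference of niche from general was -0.69 ± 0.31 in normal and -1.01 ± 0.31 in metastatic marrow (edgeR, adjusted p of 0.248 and 0.25). Metastatic against normal gave 0.46 ± 0.31 in general and 0.14 ± 0.31 in niche macrophages (edgeR, adjusted p of 1 and 0.959). Neutrophil and monocyte marker sums were likewise lower in niche libraries, and their part in the Csf2rb difference was not tested.

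Csf2rb2 was the most uneven of the receptor genes detected in every library. It held 72.6, 60.5 and 32.9 CPM in general normal and 78.2, 40.8 and 58.9 CPM in general metastatic libraries. In niche normal libraries A, B and C it held 0.487, 1.39 and 27.4 CPM, from 6, 28 and 545 counts. Niche metastatic libraries held 75.8, 23.7 and 71.9 CPM. Niche normal A and B were thus far below the other 10 libraries, while niche normal C overlapped the niche metastatic range. The difference of niche from general was -2.50 ± 1.07 in normal and -0.05 ± 1.02 in metastatic marrow (edgeR, adjusted p of 0.237 and 1). Metastatic against normal gave 2.55 ± 1.08 in niche and 0.10 ± 1.02 in general macrophages (edgeR, adjusted p of 0.381 and 1). The difference between these effects was 2.45 ± 1.46 (edgeR, adjusted p = 0.679). It ranged from 1.87 to 5.79 over the 12 fits without 1 library and was not called in any (edgeR, lowest adjusted p = 0.1). A single library decided the call: without niche normal C, the niche normal group differed from general normal by -5.84 (edgeR, adjusted p = 0.00295) and niche metastatic from niche normal by 5.89 (adjusted p = 0.0174), with the niche normal group then resting on 2 libraries. Averaged over both marrow states the niche difference was -1.28 ± 0.73 (edgeR, adjusted p = 0.378), and -2.95 without niche normal C (adjusted p = 0.00496). Such gaps between niche normal libraries were not particular to Csf2rb2. Stat5a had 4, 8 and 1540 counts in niche normal A, B and C, and Akt1 had 5, 1428 and 1048.

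The share of Csf2rb2 in the counts of both beta chain genes showed the same unevenness. It was 16.3%, 18% and 11.7% in general normal and 17.1%, 7.91% and 13.4% in general metastatic libraries. Niche normal A, B and C held 0.339%, 1.06% and 8.86%, and niche metastatic 1, 2 and 3 held 28.1%, 8.84% and 29.2%. Niche normal A and B were lowest, and niche metastatic 1 and 3 were highest. With the counts of both genes summed, an alternative added after the data were seen, the niche difference was -0.86 ± 0.31 in normal and -0.85 ± 0.31 in metastatic marrow (edgeR, adjusted p of 0.181 and 0.434), and -0.86 ± 0.22 averaged over both (edgeR, adjusted p = 0.0297).

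Il3ra, the alpha chain for interleukin-3 at chr14:14346275-14356011 on the plus strand, was detected in few libraries. It had 1, 0 and 0 counts in general normal and 1, 136 and 161 counts in general metastatic libraries. Niche normal libraries A, B and C had 0, 102 and 423 counts, and niche metastatic libraries 0, 9 and 0. Each group with signal therefore also held a library at 0 or 1 count, and the highest level, in niche normal C, was 21.2 CPM. The adjusted p was 0.24 for niche against general in normal marrow (edgeR), and 0.0383 with DESeq2, and no fold is given because the general normal libraries were at the limit of detection. The gene had more than 3 counts in 5 libraries only and passed the low-count filter through some of these, and Gm48860 on the opposite strand overlaps 46 of its exonic bases.

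Csf3r, at chr4:126024550-126044440 on the plus strand, was highest in general macrophages of normal marrow. The levels were 654, 355 and 481 CPM in that group and 196, 299 and 275 CPM in general metastatic libraries. Niche normal libraries held 298, 278 and 181 CPM, and niche metastatic libraries 201, 225 and 93.7 CPM. The 3 general normal libraries were above the other 9, and the remaining groups overlapped each other. Niche against general gave -0.98 ± 0.34 in normal marrow (edgeR, adjusted p = 0.163), and -1.16 ± 0.33 (adjusted p = 0.0491) when genes needed at least 10 counts in every library. In metastatic marrow the difference was -0.57 ± 0.34 (edgeR, adjusted p = 0.756). Metastatic against normal gave -0.95 ± 0.34 in general and -0.54 ± 0.34 in niche macrophages (edgeR, adjusted p of 0.944 and 0.509). Neutrophils are the cells best known for this receptor. The neutrophil marker sum was 19105 to 20364 CPM in general normal, 13628 to 22086 in general metastatic, 9422 to 11420 in niche normal and 10681 to 11339 in niche metastatic libraries, with all 10 markers above 3 counts in every library. Its part in the Csf3r levels was not tested.

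Kit, the receptor for stem cell factor at chr5:75574916-75656722 on the plus strand, stood higher in niche libraries of both marrow states. It held 14.3, 50 and 98.3 CPM in general normal and 43.7, 64.1 and 72.3 CPM in general metastatic libraries. Niche normal libraries held 129, 129 and 138 CPM, and niche metastatic libraries 102, 174 and 132 CPM. All 6 niche libraries were above all 6 general libraries, general normal 3 coming closest. Group means were 132 ± 5.04 and 136 ± 36.5 CPM in niche normal and metastatic libraries, against 54.2 ± 42.1 and 60.1 ± 14.7 CPM in general ones (SD, n = 3). Niche differed from general by 1.28 ± 0.53 in normal and by 1.18 ± 0.53 in metastatic marrow (edgeR, adjusted p of 0.228 and 0.554). The difference in normal marrow was 2.04 without general normal 3 and 0.84 without general normal 1, and it was not called in either fit (edgeR, adjusted p of 0.116 and 0.404). Metastatic against normal gave 0.15 ± 0.52 in general and 0.05 ± 0.52 in niche macrophages (edgeR, adjusted p of 1 and 0.995).

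Other cells known to carry Kit include stem and progenitor cells, mast cells and basophils. The 7 stem and progenitor markers, led by Myb, summed to 127 to 204 CPM in general normal, 133 to 217 in general metastatic, 403 to 530 in niche normal and 170 to 312 CPM in niche metastatic libraries. Myb held 310, 388 and 355 CPM in niche normal and 138, 112 and 151 CPM in general normal libraries. Of the 7 markers, 5 were above 3 counts in every niche normal library. Procr, another of them, was at 0 in all general normal and all niche normal libraries. The 5 mast cell and basophil markers in the table summed to 70.7 to 125, 34.7 to 47.5, 66 to 365 and 59.6 to 110 CPM in the same order of groups. Fcer1a was at 0 in all niche normal libraries, where Ms4a2 led the sum. Ms4a2 held 43.9, 118 and 103 CPM there and 5.7, 35.4 and 16.3 CPM in general normal libraries. The progenitor sum separated the sorts in normal marrow and overlapped in metastatic marrow. The mast cell and basophil sum overlapped in normal marrow and separated the sorts in metastatic marrow. The erythroid marker sum (7 genes) was 11.6 to 98.8 CPM in general and 354 to 934 CPM in niche libraries. The B cell and plasma cell marker sum (6 genes) was 85.7 to 213 CPM in general and 773 to 2843 CPM in niche libraries. Both of these separated the sorts in both marrow states. The sums were not tested, nor was their part in the Kit levels.

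Flt3, known from early progenitors and dendritic cell precursors and located at chr5:147330741-147400489 on the minus strand, was unevenly present among the libraries of a group. General normal libraries had 0, 0 and 0 counts and general metastatic libraries 317, 24 and 4 counts. Niche normal libraries A, B and C had 393, 0 and 2 counts, and niche metastatic libraries 0, 0 and 397. General metastatic 1, niche normal A and niche metastatic 3 held nearly all of the signal, at 11.6, 31.9 and 14.7 CPM, and the niche groups overlapped. The gene had more than 3 counts in 5 libraries only, and no fold is given against general normal macrophages, where every library was at 0. The 7 dendritic cell markers in the table summed to 13.7 to 32.4 CPM in general normal libraries and to 1.17, 20.2 and 15.1 CPM in general metastatic 1, 2 and 3. They summed to 47.6, 26.4 and 115 CPM in niche normal A, B and C and to 41.6, 11.3 and 37.2 CPM in niche metastatic 1, 2 and 3. Of the 3 libraries with most Flt3, general metastatic 1 had the lowest marker sum of all 12. Niche normal A had a sum below that of niche normal C alone, and niche metastatic 3 stood above every general library. The part of these markers in the Flt3 levels was not tested. Zbtb46 led the sum in niche normal libraries, with 46.5, 0.249 and 60.7 CPM in A, B and C. Clec9a led it in niche metastatic libraries 1, 2 and 3, with 17.8, 0.0437 and 6.02 CPM. Cox6a2 was at 0 in both general groups and in niche normal macrophages.

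Other genes of these pathways were taken from 6 lists of 63 genes, of which 60 were in the table and 53 were tested. In normal marrow, 3 rose and 1 fell in the niche sort with edgeR, where 1.5% of all tested genes rose and 0.97% fell (16 at an unadjusted p under 0.05, where 19% of all tested genes passed). DESeq2 called 3 higher and 5 lower, in a comparison where it called 14.2% of all tested genes, and limma-voom 1 higher and 1 lower, where it called 1.44%. The median over the 53 genes was -0.24, beside 0.19 over all tested genes. Averaged over both marrow states, 4 of the 53 were called by edgeR (Kitl, Ccnd1 and Pik3r1 higher, Cbl lower), 9 by DESeq2 and 5 by limma-voom, against 4.21%, 13% and 3.71% of all tested genes.

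Among the ligands, Kitl, which encodes the stem cell factor that Kit binds, rose in niche macrophages. It held 0.206, 0.415 and 0.25 CPM in general normal libraries, from 3, 7 and 5 counts, and 102, 92.1 and 48.8 CPM in niche normal libraries A, B and C. General metastatic libraries held 4.6, 0.362 and 0.146 CPM, and niche metastatic libraries 90.1, 23.7 and 39.8 CPM. No niche library overlapped a general library. The difference was 8.09 ± 1.46 with normal marrow (edgeR, adjusted p = 0.00364). With metastatic marrow it was 4.90 ± 1.25 and did not pass (edgeR, adjusted p = 0.0895). Kitl passed the low-count filter through the niche libraries, where it was high. Its general normal libraries were near the limit of detection, so its folds and p-values are given without further reading. Averaged over both marrow states Kitl rose by 6.50 ± 0.96 (edgeR, adjusted p = 0.000249), and by 7.86 without general metastatic 1 (adjusted p = 4.98e-05). The calls in normal marrow and in the average stood in all 21 and all 20 alternatives run. The filter of at least 10 counts in every library dropped Kitl and is not among these. Csf1, the ligand of Csf1r, differed by 1.06 ± 1.83 and 0.93 ± 1.82 in normal and metastatic marrow (edgeR, adjusted p of 0.86 and 1), with 0.162 to 69.9 CPM within the niche normal group alone. Flt3l gave 0.40 ± 1.51 and 1.47 ± 1.53 (edgeR, adjusted p of 0.949 and 1). Il34 had at most 1 count in any library, Csf2 had 130 counts in niche metastatic 3 and at most 1 elsewhere, and Csf3, Il3 and Il5 were not analysed here.

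None of the 4 related receptors (Il5ra, Epor, Pdgfra and Pdgfrb) passed the low-count filter. Epor, the erythropoietin receptor, had 481 counts in niche normal C, 179 in niche metastatic 3 and at most 1 in the other libraries. Il5ra, the alpha chain for interleukin-5, had 396 and 71 counts in general metastatic 1 and 3 and at most 2 elsewhere. Pdgfrb, a receptor for platelet-derived growth factor, had 244 counts in niche metastatic 1 and at most 6 elsewhere, and its relative Pdgfra had 0 to 8 counts in every library. Epor, Il5ra and Pdgfrb thus had signal in only some libraries of a group.

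The signal transducers held 0 called genes of 19 in normal marrow, with 5 at an unadjusted p under 0.05, beside 2.47% and 19% of all tested genes. The smallest p was that of Pik3r1, the regulatory subunit of phosphoinositide 3-kinase, at 0.86 ± 0.30 in normal and 0.88 ± 0.30 in metastatic marrow (edgeR, adjusted p of 0.176 and 0.391). Its niche libraries held 236, 254 and 408 CPM in normal and 375, 216 and 220 CPM in metastatic marrow, all above the general libraries, which held 137 to 177 CPM. Averaged over both marrow states Pik3r1 rose by 0.87 (edgeR, adjusted p = 0.0244). That call was lost in 8 of 12 fits without 1 library, namely each fit without a general library and those without niche normal C or niche metastatic 1 (adjusted p of 0.0583 to 0.0974).

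Cbl, the ubiquitin ligase that marks activated Csf1r and Kit for removal, was the only gene called by edgeR among 11 tested inhibitors and sheddases. DESeq2 also called Dok1 and Dok2 between the sorts in normal marrow and in the average. Their niche normal libraries had at most 2 and 4 counts. Cbl held 1590, 1343 and 1359 CPM in general normal and 1160, 1088 and 1038 CPM in general metastatic libraries. Niche normal libraries held 674, 788 and 617 CPM and niche metastatic libraries 717, 670 and 808 CPM. Every niche library was below every general library. In normal marrow Cbl fell by 1.05 ± 0.20 in niche macrophages (edgeR, adjusted p = 0.00556), and in metastatic marrow the difference was -0.58 ± 0.20 (adjusted p = 0.368). Averaged over both it fell by 0.81 (edgeR, adjusted p = 0.00134), and the calls in normal marrow and in the average stood in all 22 and all 21 alternatives.

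Of 9 target genes, Ccnd1, which encodes the cell cycle regulator cyclin D1, rose in niche macrophages of normal marrow. It held 0.618, 0.712 and 0.749 CPM in general normal and 76.3, 20.3 and 51.9 CPM in niche normal libraries, a difference of 6.14 ± 1.44 (edgeR, adjusted p = 0.0254). General metastatic libraries held 10.4, 4.25 and 4.72 CPM and niche metastatic libraries 22.7, 25.6 and 18.3 CPM. Every niche library was above every general library. In metastatic marrow the difference was 1.78 ± 1.18 and did not pass (edgeR, adjusted p = 0.856). The call in normal marrow was lost in 6 of 21 alternatives: without general normal 1, 2 or 3 or niche normal A (adjusted p of 0.0721 to 0.107), with limma-voom (adjusted p = 0.0503) and when only the 6 libraries compared were fitted (adjusted p = 0.0993). Averaged over both marrow states Ccnd1 rose by 3.96 (edgeR, adjusted p = 0.0162), a call lost without general metastatic 2 or 3 (adjusted p of 0.063 and 0.0643). Its exons share 1100 bases with LTO1 on the opposite strand.

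Of 11 transcription factors that act on receptor genes, Irf8 rose in niche macrophages of normal marrow. Irf8, a factor of monocyte and dendritic cell development, held 39.4, 43.8 and 60.1 CPM in general normal and 153, 130 and 206 CPM in niche normal libraries, a difference of 1.77 ± 0.46 (edgeR, adjusted p = 0.0478). The groups did not overlap in normal marrow, but in metastatic marrow they did (92.3, 86.5 and 51.7 CPM in general, 89.4, 40 and 86 CPM in niche). The Irf8 call stood in only 2 of 12 fits without 1 library, those without niche normal B or niche metastatic 2 (adjusted p up to 0.213 in the others). It was also lost with RLE scaling, limma-voom, no low-count filter, only the 6 libraries compared, or without haemoglobin, immunoglobulin, mitochondrial and small nucleolar RNA genes (adjusted p of 0.0517 to 0.139).

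**Figure D4:**
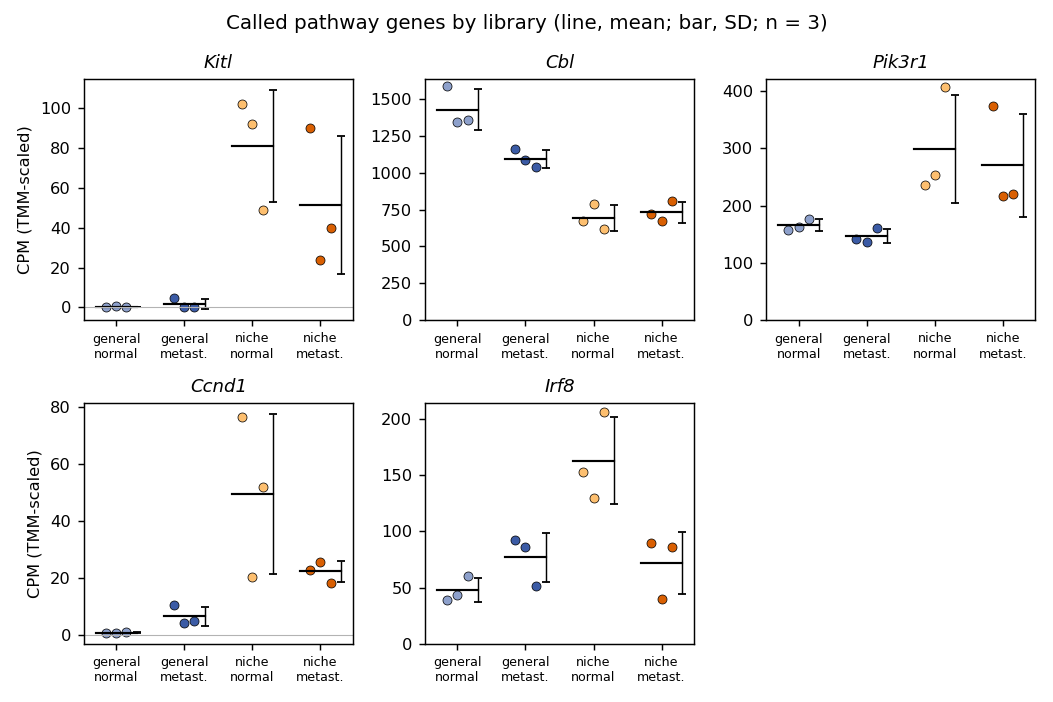
Level in CPM of the 5 pathway genes called between the sorts in normal marrow or averaged over both marrow states; points are libraries, lines are means and bars are SD (n = 3). Kitl, Ccnd1 and Pik3r1 were higher and Cbl lower in all 6 niche libraries than in all 6 general libraries, whereas Irf8 separated the sorts in normal marrow alone.

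In metastatic marrow, 0 of the 53 pathway genes were called by edgeR in niche against general macrophages, with 5 at an unadjusted p under 0.05, where 8.6% of all tested genes passed. DESeq2 called 1 (Kitl) and limma-voom 1 (Cbl), where they called 3.73% and 1.38% of all tested genes. The smallest p-values in the remaining lists were those of Osm among target genes (adjusted p = 0.523) and Spi1 among transcription factors (adjusted p = 0.552), both from edgeR.

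For metastatic against normal marrow, edgeR called 0 of the 53 pathway genes in general macrophages (3 at an unadjusted p under 0.05, 1 with DESeq2, 0 with limma-voom, against 5.12%, 1.09% and 0.179% of all tested genes). The smallest p-values of the 5 tested lists were those of Kitl, Syk, Cbl, Ccnd1 and Runx1, each at an adjusted p of 0.944. In niche macrophages the count was also 0 with edgeR, with 10 at an unadjusted p under 0.05, 4 with DESeq2 (Cebpa, Dok2, Egr1 and Dok1) and 0 with limma-voom. Over all tested genes 12.7% had such a p and DESeq2 called 7.41%, so that its 4 of 53 is a share near that of all genes. Cebpa, a transcription factor of the myeloid lineage, had 3, 6 and 2 counts in niche normal and 368, 256 and 535 counts in niche metastatic libraries (edgeR, adjusted p = 0.268). Dok2, an adaptor that dampens receptor kinase signals, had 1, 3 and 4 counts against 53, 329 and 355 (edgeR, adjusted p = 0.381). Egr1, an immediate early gene, held 0.325, 9.74 and 0.603 CPM against 75.3, 96.1 and 39.5 CPM (edgeR, adjusted p = 0.249). These 3 genes did not overlap between the niche groups. In all, 5 of the 53 were higher in every niche metastatic library and 4 lower in every one, beside 5.63% and 7.11% of all tested genes. Lyn, a Src family kinase, gave -0.78 ± 0.29 (edgeR, adjusted p = 0.381) with overlapping groups, and Kitl gave -0.66 ± 1.06 (adjusted p = 0.928). The interaction was called for 0 of the 53 with edgeR, 6 at an unadjusted p under 0.05, 5 with DESeq2 and 0 with limma-voom, against 7.89%, 3.18% and 0% of all tested genes.

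For the 6 receptor genes above 10 CPM on average, the genes with the most similar profile over the 12 libraries were found among 8144 others, by the root mean square difference of log2 CPM centred on each gene's mean. Csf2rb had the closest neighbours, Kif11 (0.23), Atp6v1a (0.26) and Fam120a (0.29), against its own spread of 0.57. Csf1r was nearest to Stard8 (0.33), Rmnd5a (0.35) and Gsap (0.39), with a spread of 0.67. Csf3r was nearest to Pitpnm1 (0.33), Tlr13 (0.35) and Gm21188 (0.36), with a spread of 0.68. For Csf2ra the nearest were Ccpg1 (0.40), Zfp26 (0.46) and Snx1 (0.48), and for Kit they were Dnm1l (0.41), Ncl (0.47) and Brwd1 (0.49), with spreads of 0.97 and 0.96. Csf2rb2, the widest at 2.23, was nearest to Elovl1 (0.50), Hpse (0.63) and Psmd14 (0.63). The measure keeps the size of the spread, so the paralog Csf2rb, with a spread of 0.57, could not be among these. Nothing is read from its absence.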

How the data were processed

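The authors deposited 1 table of expected counts per gene symbol, taken as such from its values, 73.9% of which were whole numbers. Per the submitters' processing notes, Partek, STAR 2.7.3a, DESeq2 1.40.2, R 4.3.1 and the build mm10 were used. The counting program, annotation and strandedness are not given in the sources used here. Per the labels' protocols, total RNA was depleted of ribosomal RNA.

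Counts were rounded and tested with edgeR 4.0.16 in R 4.3.3 (filterByExpr, TMM scaling, quasi-likelihood F-test, 4 group means over 12 libraries, no covariates), with Benjamini-Hochberg adjustment over 12882 genes and calls at an adjusted p under 0.05. Fold changes are log2 values ± SE, and CPM uses TMM-scaled totals. The total per library was 13687957 to 30332442 and bounds the precision of low counts. Replicates differed beyond counting noise in every group (chi-square per degree of freedom of 139 to 411), so none was merged. The fit was tested on simulated data.

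Gene models, lengths and coordinates came from GENCODE M21 (GRCm38), of which 18026 symbols matched, and promoters from RefSeq GRCm38.p6; the Csf1r and Csf2rb promoters were not used here. DESeq2 1.42.0, limma-voom 3.58.1, other scalings and filters, and fits without each library were alternatives. The members and lists were chosen with earlier results of these data known. Named genes were all 8 receptors, the sorting antigens, called pathway genes (at most 4 per list) or otherwise each list's smallest p, and the 3 nearest profiles; Csf1, Flt3l, Spi1, the related receptors and the genes called by other tools were named after their values were seen. Some genes of the lists are not reported here and were left out of the list counts.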

Additional observations from a re-analysis of the deposited data

How the results depend on the processing

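The count of receptor genes called was 0 in the 5 planned comparisons and stayed 0 under most alternatives. In niche against general macrophages of normal marrow it became 1 with at least 10 counts in every library (Csf3r), 1 with DESeq2 (Il3ra), and 0 to 1 in the 12 fits without 1 library, the 1 being Csf2rb2 without niche normal C. In metastatic marrow it became 1 with limma-voom (Csf2rb). For niche metastatic against niche normal it was 0 to 1 without 1 library (Csf2rb2 without niche normal C). For the interaction of sort and metastasis it became 1 with DESeq2 (Il3ra). The averaged population comparison, added after the data were seen, moved from 1 to 2 with the stricter filter, 3 with DESeq2, 2 with limma-voom, 3 with robust dispersion, and 0 to 2 without 1 library (2 without general normal 3, with Kit, or without niche normal C, with Csf2rb2). The averaged metastasis comparison gave 0, and 0 to 1 without 1 library (Csf2rb2, without niche normal C, 3.00, edgeR adjusted p = 0.0358). Csf2rb2 in metastatic marrow turned from -0.05 to 0.21 with scaling by library size only. Without 1 library, the uncalled differences that turned sign ranged from -0.55 to 0.11 (Csf2ra, niche against general, normal marrow), from -0.32 to 0.32 (Csf2rb2, niche against general, metastatic marrow), from -0.73 to 0.06, -0.16 to 0.35 and -0.30 to 0.91 (Csf1r, Csf2rb2 and Kit, metastasis in general macrophages), and from -0.81 to 0.10, -0.06 to 0.57 and -0.18 to 0.21 (Csf1r, Csf2rb and Kit, metastasis in niche macrophages). Over all genes, edgeR called 318, 107, 2, 1 and 0 in the 5 planned comparisons, DESeq2 1825, 480, 141, 954 and 410, and limma-voom 186, 178, 23, 11 and 0. Scaling by library size only moved the median of all genes from 0.04 to 0.29 (niche against general, metastatic marrow) and from 0.05 to 0.19 (averaged), and the calls higher and lower from 74 and 33 to 96 and 20, and from 333 and 209 to 410 and 144. It also called Kit in the average (adjusted p = 0.0482). The order of the 8 genes per length over all libraries was the same with the longest transcript, though Csf2rb and Kit moved to 56.1 and 18.2 CPM per kilobase and Csf2rb (84) then stood above Csf3r (73.7) in general metastatic macrophages. Csf2ra and Csf2rb also changed places in general normal macrophages, as did Csf1r and Csf2rb, and Csf2rb2 and Flt3, in niche normal macrophages. Same-numbered libraries of the 3 numbered groups deviated together with correlations of -0.007 to 0.034 over 9 pairs, so the numbers were not taken to pair the samples, and the fit with a replicate block called 0 receptor genes in both comparisons it allowed.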
